A study of Mus musculus with 12 samples.

Results

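The 37 genes described here are genes of T cells and natural killer (NK) cells, listed by symbol for what they encode, with no measured value in the rule. All 37 were found among the 16969 genes of the series (16971 listings, of which 2 repeated a symbol). The cells are GFP(+) cells sorted from the nonparenchymal fraction of livers of adult *Prom1*CreERT2-nLacZ/+;Rosa26Lsl-GFP/+ mice on a C57BL/6 background, in which tamoxifen makes *Prom1*-expressing cells and their progeny permanently GFP(+). Tamoxifen was given 7 days before surgery in every group. Cre recombinase is driven by the *Prom1* locus, and *Prom1* marks bile duct epithelium but is not restricted to it. In stained livers, the study saw *Prom1*-driven LacZ only in some bile duct cells, and GFP in uninjured adults only within bile ducts. The groups are day 0 (called sham in the labels and before surgery in the methods), BDL day 3 and BDL day 14, where BDL is ligation of the bile duct, an operation that stops bile from draining. The deposited table rests on 3 day 0, 3 BDL day 3 and 4 BDL day 14 libraries from 100000 sorted cells each. The labels describe 6 BDL day 14 libraries and do not say which 4 were used. The sources used here mention exclusion of dead cells in the sort and negative gates set on wild type livers. They mention no gate against CD45 or lymphocyte markers.

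For each gene the table gives 1 mean per group, made by the authors from normalized counts, a mean of the 10 libraries together, and the count of whichever library was highest, without its name. It gives no value for any other library, so no SD could be computed from single libraries and no test was run, and the depth of each library is unknown. A gene is called higher or lower here where 2 group means differ by more than 1.5-fold, the fold change used by the study. Means of up to 0.512 (day 0), 0.292 (BDL day 3) and 0.244 (BDL day 14) lie within 4 times the lowest mean of their group and are read as the floor, and a fold against such a mean is given as a bound. Since the RNA came from bulk sorted cells, fewer T and NK cells and less RNA per cell cannot be told apart.

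T cells recognise peptides on other cells through an antigen receptor, an alpha and a beta chain held together with the CD3 proteins. The receptor cannot signal alone. The kinase LCK, brought by the co-receptor CD4 or CD8, phosphorylates the CD3 tails, ZAP70 docks there, and LAT passes the signal on. NK cells carry no rearranged antigen receptor. They read activating receptors, such as NKp46 (*Ncr1*) and NKG2D (*Klrk1*), beside inhibitory ones. They kill with perforin and granzymes, which cytotoxic T cells use too. The mouse liver holds both cell types in its sinusoids, with NK cells and NKT cells more frequent there than in blood.

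RUNX proteins are transcription factors of T cells and NK cells, and their short binding motif is present upstream of several of these genes. Promoters of 25 of the 37 genes were found in RefSeq (GRCm38.p6). The letters TGTGGT, which read ACCACA on the other strand, lay within 250 bases before the start site in 9 of the 25 (36%), namely *Gzma*, *Gzmb*, *Prf1*, *Nkg7*, *Klrb1c*, *Klre1*, *Klrk1*, *Ncr1* and *Lck*, against 11.1% of all 11723 promoters. The same search found CTTTGA, the core read by TCF7 and LEF1, in 4 of the 25 (16%) against 11.2%. AGATAA, read by GATA factors, was in 1 of the 25 (4%) against 6.48%, and AGGTGTG, read by T-box factors, was in 2 of the 25 (8%) against 4.06%. Both strands were searched for each motif, and matches of TGTGGT and AGGTGTG can share letters. These are counts of letters, not of bound sites, and nothing was tested on them. The windows of 4 genes of killer cell function are shown, 5′ to 3′ on the strand of the gene and ending at the base before the RefSeq start site, with the RUNX letters in capitals.
Ncr1, chr7:4337474-4337723, plus strand: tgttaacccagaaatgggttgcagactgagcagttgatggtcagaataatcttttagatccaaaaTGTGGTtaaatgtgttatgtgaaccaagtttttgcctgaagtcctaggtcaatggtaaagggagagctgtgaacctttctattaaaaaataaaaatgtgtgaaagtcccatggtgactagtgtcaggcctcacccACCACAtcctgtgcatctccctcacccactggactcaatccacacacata
Klrk1, chr6:129623865-129624114, minus strand: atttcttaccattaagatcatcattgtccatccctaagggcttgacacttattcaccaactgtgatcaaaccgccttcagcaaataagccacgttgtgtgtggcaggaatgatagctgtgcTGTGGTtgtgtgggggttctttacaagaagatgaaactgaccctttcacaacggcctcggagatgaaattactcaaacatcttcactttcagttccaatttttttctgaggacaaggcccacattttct
Gzma, chr13:113100982-113101231, minus strand: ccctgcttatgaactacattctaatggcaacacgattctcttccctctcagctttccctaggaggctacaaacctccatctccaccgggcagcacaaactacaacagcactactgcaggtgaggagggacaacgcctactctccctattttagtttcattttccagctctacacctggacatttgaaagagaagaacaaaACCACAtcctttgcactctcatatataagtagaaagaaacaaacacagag
Prf1, chr10:61297586-61297835, plus strand: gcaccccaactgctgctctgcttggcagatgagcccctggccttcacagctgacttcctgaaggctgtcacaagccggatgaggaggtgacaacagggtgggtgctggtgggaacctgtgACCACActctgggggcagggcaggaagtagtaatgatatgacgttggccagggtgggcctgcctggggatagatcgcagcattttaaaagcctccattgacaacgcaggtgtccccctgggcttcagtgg
*Ncr1* had the letters in both orientations, and the other windows shown had them once. All 37 genes, with or without these letters, had their highest group mean at day 0, as given below.

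At day 0 the 37 genes together held 0.0517% of the summed signal. This share came to 0.0177% in the BDL day 3 group and to 0.00619% in the BDL day 14 group. The background for all counts below is the 12889 genes with a sum of 10 or more normalized counts over all libraries. The summed means of the 37 genes were 477, 149 and 45.5, 3.20-fold lower at BDL day 3 and 10.5-fold lower at BDL day 14 than at day 0. Per kilobase of exon, the highest day 0 levels were those of *Trbc2* (37.4), *Gzma* (33.5), *Trbc1* (26.8), *Nkg7* (22.4) and *Trac* (17.8), and the lowest were those of *Bcl11b* (0.254), *Lef1* (0.271) and *Eomes* (0.318). The highest genes named here thus belonged to the antigen receptor and to cytotoxic granules, and the lowest were transcription factors. The groups overlapped, with *Cd3e* (1.37) and *Prf1* (1.85) below the transcription factor *Tcf7* (4). *Lef1* and *Eomes* fell under the minimum sum of 10, and 35 of the 37 passed it.

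At BDL day 3, 36 of the 37 genes were lower than at day 0 by more than 1.5-fold and 0 were higher. Of all genes tested, 29.2% were lower and 19.2% were higher. At BDL day 14, 37 of the 37 were lower and 0 were higher, against 28.8% and 21.2% of all genes tested. The median log2 ratio of the 37 genes was −1.95 for BDL day 3 and −3.77 for BDL day 14 (−3.60 with genes at the floor set to their bound), and that of all genes tested was −0.02 and −0.04. Both comparisons use the same day 0 libraries. Between the BDL groups, 32 of the 37 were lower at day 14 than at day 3 and 1 was higher, *Cd28*, against 19.7% and 21.2% of all genes tested, with medians of −1.93 and −0.00.

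**Figure D1:**
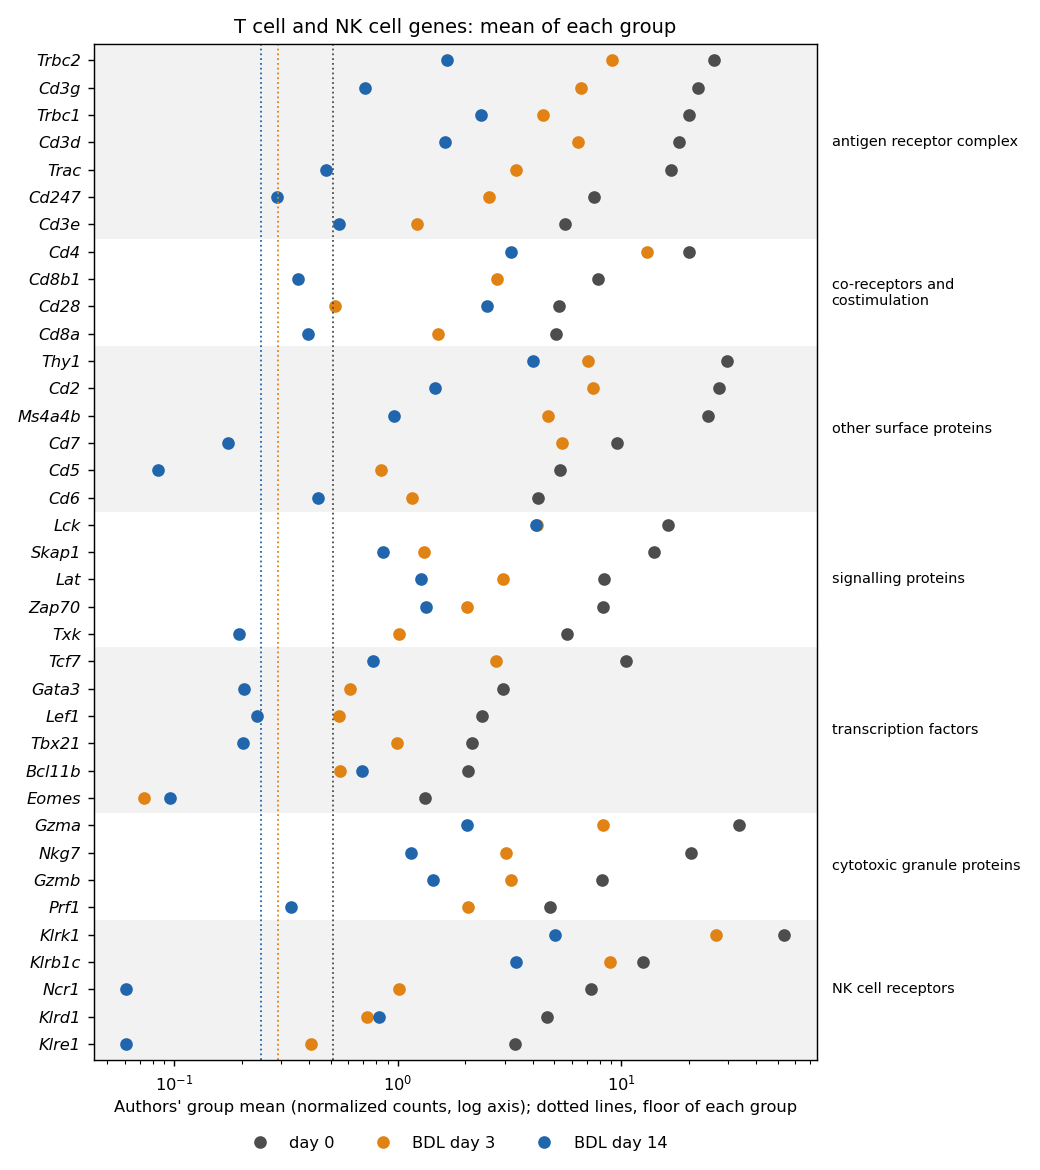
Authors' group means (normalized counts, log axis) of the 37 T cell and NK cell genes in each of the 3 groups, ordered by role, with dotted lines at the floor of each group. The day 0 point is the rightmost in every row, and 9 genes lie at or left of the BDL day 14 floor.

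The genes of the antigen receptor complex were lower in both BDL groups in 7 of 7 cases, with median log2 ratios of −1.75 and −3.97. *Trac*, the constant region of the alpha chain, had means of 16.6 (day 0), 3.38 (BDL day 3) and 0.476 (BDL day 14), the order used for all means from here on, with log2 ratios of −2.30 and −5.12. The constant regions of the beta chain had means of 20.1, 4.46 and 2.36 (*Trbc1*) and 25.9, 9.03 and 1.65 (*Trbc2*). Both lie on chromosome 6 within a short distance and are 95.6% identical over 521 aligned bases of their transcripts, with a shared run of 259 bases, so how reads were split between them is uncertain. Their sum was 46.0, 13.5 and 4.01, log2 ratios of −1.77 and −3.52, which does not depend on that split. Without its highest library, in day 0, the BDL day 3 log2 ratio of *Trbc2* was 0.57.

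The CD3 genes *Cd3g*, *Cd3d* and *Cd3e* lie side by side on chromosome 9 (GRCm38, 44969572 to 45009627) and encode the gamma, delta and epsilon chains that flank the receptor. *Cd3g* had means of 22.0, 6.56 and 0.710, log2 ratios of −1.75 and −4.95. *Cd3d* had means of 18.1, 6.37 and 1.62, log2 ratios of −1.51 and −3.48. *Cd3e* had means of 5.57, 1.22 and 0.545, log2 ratios of −2.19 and −3.35. The means of all of them had the order day 0, BDL day 3, BDL day 14 from high to low. Without its highest library, which lay in day 0, the log2 ratio at BDL day 3 became 1.04 for *Cd3d* and −0.46 for *Cd3g*. *Cd247*, the zeta chain that carries most of the signalling motifs, had means of 7.52, 2.56 and 0.287, log2 ratios of −1.55 and −4.71. Of its exon bases, 56.4% overlap *Pou2f1* on the opposite strand, and whether strand was used in counting is not given in the sources used here. The means of *Pou2f1* ran the other way, at 2.76, 5.63 and 7.57.

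Co-receptors and the costimulatory receptor were lower in 4 of 4 cases at both times, with median log2 ratios of −1.63 and −3.17. *Cd4*, the co-receptor of helper T cells, had means of 20.1, 13.0 and 3.19 and was only just past 1.5-fold at BDL day 3, with log2 ratios of −0.63 and −2.66. *Cd8a*, one chain of the co-receptor of cytotoxic T cells, had means of 5.08, 1.51 and 0.396, log2 ratios of −1.75 and −3.68. Its partner *Cd8b1* had means of 7.87, 2.78 and 0.358, log2 ratios of −1.50 and −4.46. *Cd4* was thus lower by less than either CD8 chain at BDL day 3, a difference that was not tested. *Cd4* is also expressed by dendritic cells. *Cd28*, the receptor for B7 costimulation, went a different way from the rest, with means of 5.23, 0.525 and 2.50. Its log2 ratios were −3.32 and −1.06 against day 0, and it was the 1 member higher at BDL day 14 than at BDL day 3, by 2.25 on the log2 scale. Without its highest library, in day 0, its log2 ratio at BDL day 14 was 0.95.

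The other surface proteins were lower in 6 of 6 cases at both times, with median log2 ratios of −1.97 and −4.45. *Thy1*, a GPI-anchored protein of mouse T cells that fibroblasts carry too, had means of 29.8, 7.06 and 4.01, log2 ratios of −2.08 and −2.89. The 12 mesenchymal marker genes were also lower in both BDL groups, 12 of 12, with summed means of 1475, 28.0 and 139, and their part in the *Thy1* value was not tested. *Cd2*, an adhesion receptor of T and NK cells, had means of 27.2, 7.49 and 1.46, and *Ms4a4b*, a membrane protein of naive and Th1 cells, had 24.5, 4.71 and 0.956. The log2 ratios at BDL day 14 were −4.22 for *Cd2* and −4.68 for *Ms4a4b*. *Cd5* and *Cd6*, related scavenger receptors that dampen receptor signalling, lie next to each other on chromosome 19. *Cd5* had means of 5.30, 0.840 and 0.0843, which puts BDL day 14 at the floor and at least 21.7-fold lower than day 0. *Cd6* had means of 4.21, 1.15 and 0.438, log2 ratios of −1.87 and −3.26. *Cd7*, an immunoglobulin-family receptor, differed from them in time, with a mean of 9.58, then 5.41 (log2 ratio −0.82), then 0.173 at BDL day 14, at least 39.3-fold lower than day 0.

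The signalling proteins were lower in 5 of 5 cases at both times. *Lck* had means of 16.1, 4.18 and 4.14, with log2 ratios of −1.95 and −1.96, so that its means in the BDL groups were nearly equal. *Zap70* had 8.27, 2.04 and 1.33 and *Lat* had 8.32, 2.95 and 1.27, with log2 ratios at BDL day 14 of −2.64 and −2.71. At BDL day 14 the median log2 ratio was −2.71 over the 5 signalling genes and −3.97 over the 7 receptor genes, a difference that was not tested. It does not hold for each gene, since *Skap1* (−4.02) and *Txk* (at the floor) lay below the receptor median. At BDL day 3 the order of the medians was the reverse, −2.02 for signalling genes and −1.75 for receptor genes. *Skap1*, an adaptor that links the receptor to integrin adhesion, had means of 14.0, 1.31 and 0.861, and at −3.42 its log2 ratio at BDL day 3 was the lowest of the members that passed the minimum. *Txk*, a Tec-family kinase, had 5.72, 1.01 and 0.194, and was at the floor at BDL day 14, at least 23.4-fold lower than day 0. Without its highest library, in day 0, its log2 ratio at BDL day 3 was 0.044.

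The transcription factors were lower in 6 of 6 cases at both times, with median log2 ratios of −2.03 and −3.58 (−3.21 with genes at the floor set to their bound). *Tcf7*, which encodes TCF1 of naive and progenitor T cells, had means of 10.5, 2.74 and 0.771, log2 ratios of −1.94 and −3.77. *Gata3* had 2.96, 0.612 and 0.205 and *Lef1* had 2.38, 0.544 and 0.235, and both were at the floor at BDL day 14, at least 12.1-fold and 9.75-fold lower than day 0. *Bcl11b*, which fixes T cell identity, had 2.06, 0.550 and 0.692, log2 ratios of −1.91 and −1.57. The mean of *Bcl11b* was thus no lower at BDL day 14 than at BDL day 3, unlike that of *Tcf7*. Both BDL means of *Bcl11b* lay near the floor, and this difference between the genes was not tested. The T-box factors of Th1 and NK cells were both at the floor at BDL day 14. *Tbx21* had 2.14, 0.994 and 0.203, at least 8.77-fold lower at BDL day 14. *Eomes* had 1.32 at day 0 and was at the floor in both BDL groups (0.0729 and 0.0959), at least 4.53-fold and 5.41-fold lower.

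The genes of cytotoxic granules were lower in 4 of 4 cases at both times, with median log2 ratios of −1.69 and −3.95. *Gzma*, granzyme A, had means of 33.7, 8.25 and 2.04, log2 ratios of −2.03 and −4.05. *Nkg7*, a granule membrane protein, had 20.5, 3.04 and 1.14, log2 ratios of −2.75 and −4.17. *Gzmb*, granzyme B, had 8.20, 3.21 and 1.44, log2 ratios of −1.35 and −2.51. The ratio was thus closer to 0 for granzyme B than for granzyme A at both times, a difference that was not tested. *Prf1*, the pore-forming perforin, had 4.78, 2.05 and 0.331, log2 ratios of −1.22 and −3.85.

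Of the NK cell receptors, 4 of 5 were lower at BDL day 3 and 5 of 5 at BDL day 14. *Klrb1c*, the NK1.1 antigen of this mouse background, had means of 12.5, 8.89 and 3.39 and was the 1 member within 1.5-fold of day 0 at BDL day 3, with log2 ratios of −0.49 and −1.88. Without its highest library, in day 0, the first of these was 0.93. Of its exon bases, 13.9% are shared with *Gm44511*, whose means were 0.243, 0.0729 and 0.357. *Ncr1*, the NKp46 receptor used to define NK cells and related innate lymphocytes, had 7.34, 1.01 and 0.061. The last value is the lowest mean in its group, which puts BDL day 14 at least 30.1-fold below day 0. *Klrk1*, *Klrd1* and *Klre1* lie together in the NK gene complex on chromosome 6 (GRCm38, 129577905 to 129623864). *Klrk1*, which NK cells and CD8 T cells share, had means of 53.5, 26.6 and 5.02, log2 ratios of −1.01 and −3.41. *Klrd1*, the CD94 partner of the NKG2 receptors, had 4.65, 0.728 and 0.819, log2 ratios of −2.68 and −2.51. *Klre1* had 3.35, 0.408 and 0.061, at least 13.7-fold lower at BDL day 14. Differences between these neighbours were not tested.

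**Figure D2:**
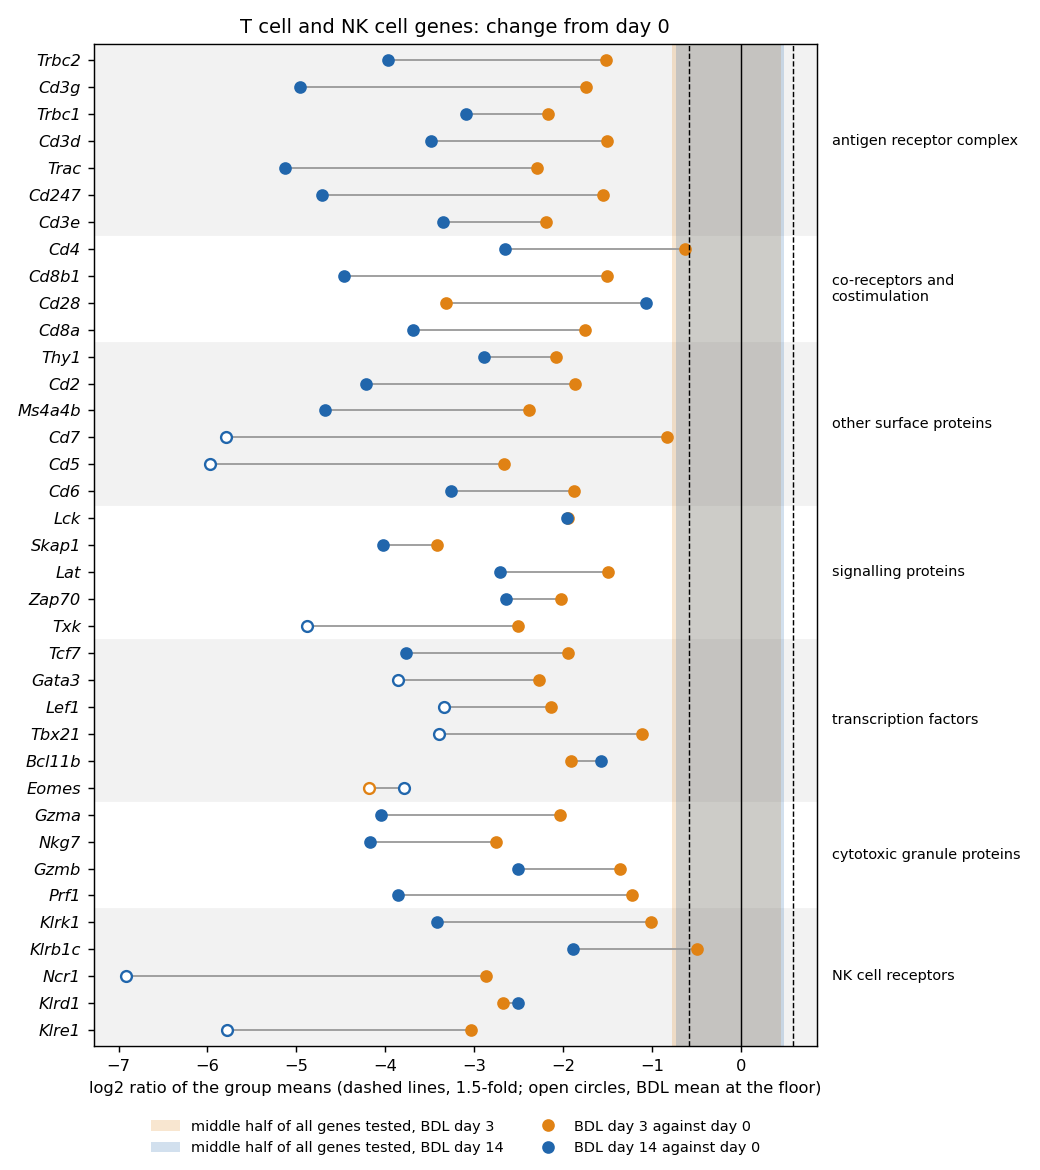
log2 ratio of the group means of BDL day 3 and BDL day 14 to day 0 for the 37 genes, with the middle 50% of all genes tested shaded and the 1.5-fold limits dashed. Open circles mark BDL means at the floor, where the plotted ratio is no bound. All points lie left of 0, and only *Klrb1c* at BDL day 3 lies within the dashed lines.

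The spread between libraries can be approached from what the table keeps. From the gap between the group means and the geometric mean over all libraries, and with the assumption of 1 roughly log-normal spread for all groups, the median log2 SD was 1.53 over the 37 genes against 0.58 over all genes tested, from 0.67 for *Klrk1* to 2.70 for *Bcl11b*. Libraries with 0 reads raise this figure, so it is approximate. By it, 11 of the 37 were lower at BDL day 3 by more than 1.5-fold and more than 2 standard errors, and 33 of the 37 at BDL day 14, against 15.0% and 16.8% of all genes tested. The 11 were *Cd2*, *Cd28*, *Lck*, *Trac*, *Tcf7*, *Eomes*, *Thy1*, *Skap1*, *Ncr1*, *Klrd1* and *Klre1*. The 4 that did not pass at BDL day 14 were *Cd28*, *Zap70*, *Lat* and *Bcl11b*. *Klrk1* had an approximate standard error of 0.55 beside its log2 ratio of −1.01 and one of 0.51 beside −3.41. The assumption of 1 spread does not hold for every gene. For *Cd8a*, day 0 libraries lay close together (highest 5.32, mean of the other 2 4.96) beside a derived log2 SD of 1.61. *Ncr1* passed in both BDL groups although 1 library held 84.9% of its day 0 count. Passing by standard errors thus does not mean that the day 0 libraries were alike.

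The highest library of each gene was placed in a group where no other group had a sum large enough to contain its count. It was in day 0 for 33 of the 37 genes and could not be placed for *Cd4*, *Cd7*, *Tbx21* and *Klrk1*. In 30 of the 33 it held more than 50% of the summed day 0 count, with a median share of 69.1%. Of the 12889 background genes, 1346 had their highest library placed in day 0, and of these 63.4% had such a share, with a median of 54.3%. The share reached 88.6% for *Cd3d*, whose highest library had 48.1 and whose other 2 day 0 libraries had a mean of 3.10, below the BDL day 3 mean of 6.37. *Txk* had 15.2 and 0.98, and *Trbc2* had 65.5 and 6.10. These day 0 means rest largely on 1 library. At the other end, *Cd8a* had 5.32 in its highest library and a mean of 4.96 in the other 2, *Cd3e* had 6.71 and 5.00, and *Zap70* had 9.95 and 7.43, so that their day 0 libraries lay closer together. The table does not say whether the highest day 0 library was the same one for different genes.

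Without the highest library of each gene, whichever group held it, 24 of the 35 genes that passed the minimum were lower at BDL day 3 and 2 were higher, *Cd3d* and *Klrb1c*, and 32 were lower at BDL day 14 and 1 was higher, *Cd28*. Leaving out the highest value lowers day 0 by construction wherever it lay there. The median log2 ratio was then −0.82 for BDL day 3 and −2.86 for BDL day 14. The BDL day 3 ratios of *Cd3d* (1.04), *Klrb1c* (0.93), *Trbc2* (0.57) and *Txk* (0.044) and the BDL day 14 ratio of *Cd28* (0.95) were then above 0. Those of *Cd3g* (−0.46), *Cd247* (−0.01), *Cd8b1* (−0.47), *Cd2* (−0.51), *Lat* (−0.34), *Bcl11b* (−0.49) and *Prf1* (−0.10) at BDL day 3 and of *Bcl11b* (−0.16) and *Klrb1c* (−0.46) at BDL day 14 came within 1.5-fold. *Cd4*, *Cd7*, *Tbx21* and *Klrk1*, whose highest library could not be placed, entered with their full means.

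**Figure D3:**
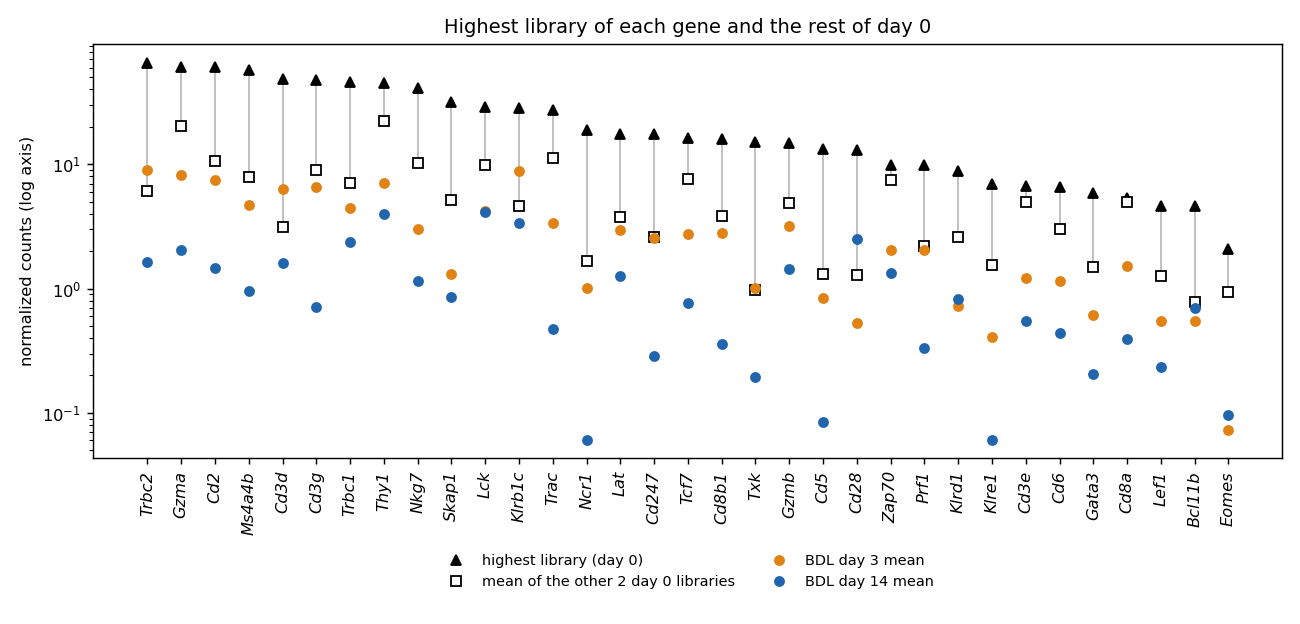
Count of the highest library (triangles) and mean of the other 2 day 0 libraries (open squares) for the 33 genes whose highest library was in day 0, with the BDL means as circles (normalized counts, log axis). Triangles and squares are far apart for *Cd3d* (48.1 and 3.10) and close for *Cd8a* (5.32 and 4.96).

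Limits on single libraries follow from the group sums and the highest count. A day 0 library was counted as above a BDL group only where no library of that group could have been as high, so these counts are minimums. At least 1 day 0 library lay above every BDL day 3 library in 33 of the 37 genes, at least 2 in 10, and all 3 in 0, against 16.1%, 8.14% and 1.68% of all genes tested. These 33 are the genes whose highest library was placed in day 0, so the first count restates that placement. At least 1 lay above every BDL day 14 library in 37 of the 37, at least 2 in 27, and all 3 in 4, against 12.4%, 6.36% and 1.44%. The 4 genes for which day 0 and BDL day 14 could not have overlapped were *Cd3e*, *Cd8a*, *Tbx21* and *Klrk1*. For the other 33, overlap of single libraries could not be decided from the table.

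Among the 37, *Thy1*, *Cd4*, *Lef1*, *Gata3*, *Cd7* and *Skap1* were set aside as also known from cells other than T and NK cells. This is not a full list, and other members may be shared too. Without these 6, 30 of 31 genes were lower at BDL day 3 and 31 of 31 at BDL day 14, with median log2 ratios of −1.94 and −3.77. The summed means of 10 T cell markers, all among the 37, were 140, 39.5 and 13.5. Those of 7 NK cell markers, also all among the 37, were 67.6, 21.4 and 6.80. Cytotoxic T cells use *Gzma* and *Prf1* of the NK cell markers too. Both sums were lower at both times, which restates the values of the members. A wider list of 68 genes used by T and NK cells outside the 37, of which 65 were found, included cytokine receptors, GIMAP GTPases and Ly49 receptors. It also held genes that other leukocytes express, such as *Ptprc*, so its counts are not of T and NK cells alone. Of the 65, 55 were lower at BDL day 3 and 0 higher, and 52 were lower at BDL day 14 and 4 higher, with median log2 ratios of −1.55 and −2.86. The 4 that were higher at BDL day 14, named after their values were seen, were the transcription factor genes *Runx3* (1.95, 0.946 and 7.42), *Nfatc2* (2.13, 1.24 and 7.94) and *Zbtb16* (2.29, 0.545 and 4.69) and the cytokine receptor *Il21r* (6.16, 3.86 and 13.8). For all of them the highest library lay in BDL day 14.

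Markers of other cells stood beside these values as follows. The 10 B cell markers, another lymphocyte list, were lower in 10 of 10 cases at both times, with summed means of 596, 130 and 70.6, and their highest library was in day 0 in 10 of 10 cases with a median share of 62.1%. The 9 macrophage markers summed to 12995, 23989 and 20962. At BDL day 3, 8 of the 9 were higher and 0 lower. At BDL day 14, 1 was higher and 1 lower, and without the higher gene, *Lyz2* (2280, 4560 and 11200), the sum was not above that of day 0. The means of *Ptprc*, the CD45 gene that all leukocytes express, were 148, 129 and 119. The 6 Kupffer cell markers summed to 9814, 21889 and 1341, and the 7 neutrophil markers to 541, 270 and 177. The 6 plasmacytoid dendritic cell markers were lower in 5 cases at both times, with median log2 ratios of −1.38 and −3.90. Their sums of 77.4, 31.4 and 35.4 rest at BDL day 14 on *Tcf4* (33.8, 18.3 and 32.7). The 6 conventional dendritic cell markers found summed to 55.0, 19.9 and 33.4. The *Ptprc* means differed by less than 1.5-fold. Since all leukocytes express it, macrophages included, they are no measure of T and NK cells. *Prom1*, the gene of the lineage label, had means of 6.66, 0.956 and 1.76. The 10 cholangiocyte markers were lower in 10 cases at BDL day 3 and in 8 at BDL day 14, where 1 was higher, with median log2 ratios of −1.45 and −1.27. Their sums of 530, 204 and 831 rest largely on the higher gene, *Spp1* (459, 175 and 792). Among markers of other liver cells, the 8 for hepatocytes summed to 3430, 934 and 379 and the 7 for sinusoidal endothelium to 923, 569 and 917. The 7 proliferation markers summed to 125, 123 and 140. The part of the makeup of the sorted cells in the T and NK values was not tested.

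**Figure D4:**
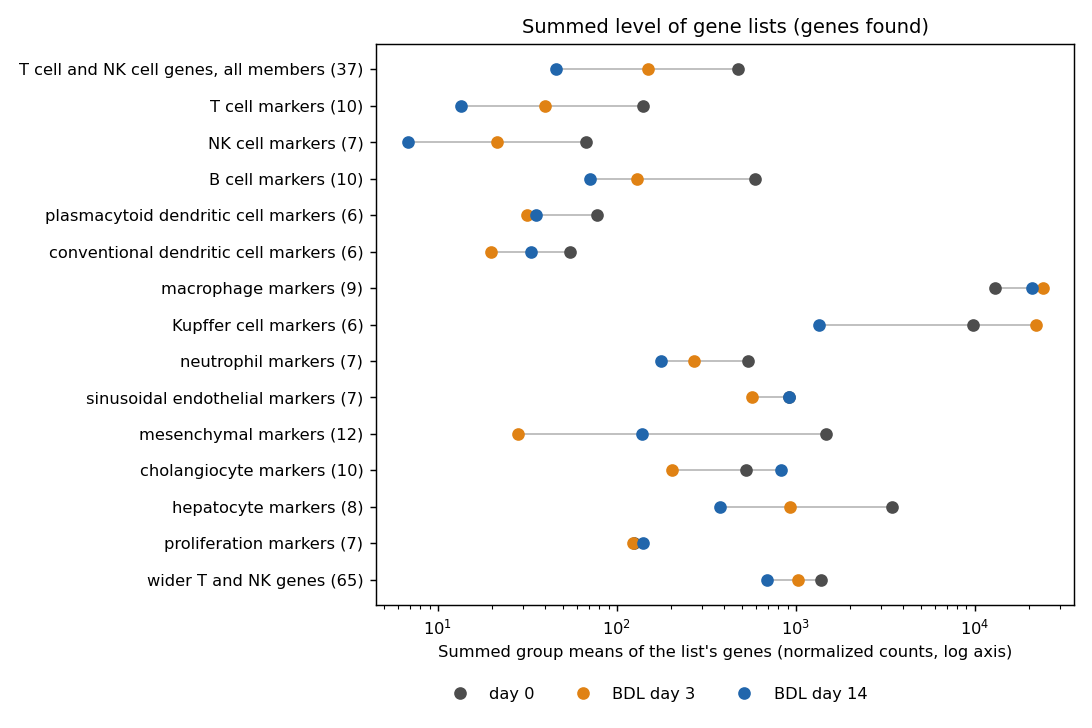
Summed group means (normalized counts, log axis) of the 37 genes and of 14 gene lists, with the number of genes found in brackets. The T cell and NK cell marker lists are drawn from the 37 genes. The T cell, NK cell and B cell lists lie, from left to right, in the order BDL day 14, BDL day 3, day 0, and the macrophage list has its lowest sum (12995) at day 0.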

How the data were processed

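GFP(+) cells of 3 groups were profiled by mRNA sequencing (TruSeq libraries, NextSeq). According to the labels and the methods, the authors trimmed the reads, aligned them with STAR to mm10 and counted them on GENCODE M18 genes in Partek Flow. The submitters' processing notes name STAR 2.6.1d. The deposited values are signal values, the authors' least squares group means and overall arithmetic mean of counts normalized by upper quartile. Other deposited columns, the geometric mean and the highest library's count, were read as they stand. The table also holds the authors' p-values, FDR, ratios, fold changes and confidence limits for the comparisons between days, which were not used. There are 0 columns of values per library, so no count test was possible and no p-value is given.

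Group sizes of 3, 3 and 4 gave back the overall mean with a 99th percentile deviation of 0.469%. Genes with a sum of at least 10 over the 10 libraries (12889 of 16969) were the background. Log2 ratios used the means without a pseudocount. The lowest means were 0.128, 0.0729 and 0.061 (984, 1284 and 550 genes), and 4 times these was read as the floor, on the assumption that they are an offset near 1 read. Library limits allowed 0.5% for rounding. Standard errors were the derived log2 SD times the root of the summed inverse group sizes. The standard error rule, the floor bounds, the library limits and the motif searches were chosen after seeing the data. The steps were tested on simulated libraries with a log-normal spread shared by all genes and groups, and no floor. That simulation cannot show how the steps behave where spread differs between groups or 1 library dominates. The study calls the libraries of a group biological replicates.

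Coordinates are those of the table on GRCm38, where the ends listed are 1 base past the last base. All 37 genes then matched GENCODE M21, from which exon lengths and overlaps were taken. Every member is named. The members, the gene lists and the comparisons were chosen with earlier results of these data known. Python 3.11.15, pandas 2.3.3, NumPy 2.4.6 and matplotlib 3.10.9 were used. The alternatives tried were median-ratio scaling, quantile normalization, no filter, a mean of at least 10, a pseudocount of 1, a fold of 2, the genes without their highest library and without members shared with other cell types.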

Additional observations from a re-analysis of the deposited data

How the results depend on the processing

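Over the alternatives tried, the median log2 ratio of the members stayed below 0, between −0.82 and −1.95 at BDL day 3, and between −2.54 and −3.77 at BDL day 14, and for BDL day 14 against BDL day 3 between −0.85 and −2.19. There a pseudocount of 1 moved it from −1.98 to −0.85, left 25 of 31 members lower and brought *Cd3e*, *Cd6*, *Zap70*, *Skap1*, *Lef1*, *Gata3* and *Klre1* within 1.5-fold (*Lef1* is under the minimum and not among the 31), since it shrinks ratios of low means. With a mean of at least 10, the 6 members left were all lower, 6 for BDL day 3, 6 for BDL day 14, and 6 between the BDL groups, with 0 higher there because *Cd28* is under that minimum. With more than 2 standard errors, 10 of the 35 members that passed the minimum were lower at BDL day 3. Without the highest library of each gene, 2 members were higher at BDL day 3 and 1 for BDL day 14, and the log2 ratio turned for *Cd3d* (1.04), *Trbc2* (0.57), *Txk* (0.044) and *Klrb1c* (0.93) at BDL day 3 and *Cd28* (0.95) at BDL day 14. Quantile normalization moved the median of all genes to 0.11 and 0.10 and brought *Cd4*, *Cd7*, *Tbx21* and *Prf1* (BDL day 3) and *Cd28* (BDL day 14) within 1.5-fold, for which the cause was not tested. Median-ratio scaling (factors 1.022, 1.005 and 0.9996) changed no call of a member. No paired analysis was possible because the table holds no values per library and the groups share no replicate numbers in the labels. A fit without each replicate in turn could not be run for the same reason. Group means without counts or depth set the limit: low members such as *Eomes* and *Lef1* have means near the floor, and no counting interval could be given.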
